A study of Mus musculus with 4 samples.

Results

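The genes described here serve the import of proteins into mitochondria and their folding, processing and removal inside the organelle. They were found by symbol, as every gene whose symbol is *Timm* or *Tomm* followed by a digit, together with *Hspd1*, *Hspe1*, *Hspa9*, *Lonp1*, *Clpp*, *Clpx*, *Trap1*, *Pmpca*, *Pmpcb* and *Grpel1*. A gene also had to reach 10 reads in 1 or more of the 4 libraries. Of 23337 gene symbols, 32 matched by name, and 31 of them had enough reads. At the edge of this minimum, *Tomm20l* came in with 34, 3, 34 and 16 reads, in the order PIMT fl/fl at 2 and 6 months and csPIMT-/- at 2 and 6 months. *Timm8a2* stayed out with 0, 2, 0 and 1 reads. The other 30 genes had at least 100 reads in some library. The choice used no difference between the groups.

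RNA came from hearts of C57BL6/J mice, male and female together, in 4 groups. PIMT fl/fl mice, in which exons 3 and 4 of the PIMT gene (symbol *Tgs1*) lie between loxP sites, were the controls at 2 and at 6 months of age, and their genotype is labelled WT. csPIMT-/- mice of both ages carry the same alleles and in addition α-MyHC-Cre, a transgene in which the promoter of α-myosin heavy chain drives Cre recombinase in cardiomyocytes from late embryonic life on, so that other cells of the heart keep the gene. Each group was 1 pool of RNA from 5 hearts and gave 1 library, so that nothing below was measured in replicate.

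Nearly all mitochondrial proteins are made in the cytosol and enter the organelle as unfolded chains. Receptors of the TOM complex in the outer membrane recognise them and pass them through its channel. Proteins with an N-terminal presequence then cross the inner membrane through the TIM23 complex, pulled in by a motor built around the chaperone mortalin (*Hspa9*), and carriers of the inner membrane are guided by small TIM proteins to the TIM22 complex. In the matrix the presequence is cut off, Hsp60 (*Hspd1*) and its lid Hsp10 (*Hspe1*) fold the chain, and the proteases LON and CLPXP remove proteins that fail to fold. Genes of this kind, *Hspd1*, *Hspe1* and *Clpp* above all, are the classical readout of the mitochondrial unfolded protein response, in which stress in the matrix raises their transcription. Cardiomyocytes are densely filled with mitochondria and depend on this supply throughout life.

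Stretches just upstream of the start of 3 genes are shown because these genes recur in the results below. *Hspe1* and *Hspd1* start head to head on chromosome 1, on opposite strands, and 1 RefSeq window of *Hspd1* shares 285 of its 300 bases with that of *Hspe1*, so that the first stretch lies upstream of *Hspe1* and of 1 of 2 RefSeq starts of *Hspd1*. The other *Hspd1* window shares 4 bases with that of *Hspe1*, and the stretch lies inside the annotated *Hspd1* gene. *Timm9* is the only other gene here whose window matched the same 3-unit heat shock element, and *Tomm70a* had the lowest ratio at 2 months. The sequences are those of RefSeq on GRCm38.p6, run 5′ to 3′ on the strand of the gene, and end at the last base before its start. Capitals mark matches to the 3-unit heat shock element (GAA, 2 bases, TTC, 2 bases, GAA) or to CCGGAAG, the core bound by ETS factors such as GABPA, read on either strand.
*Hspe1*, chr1:55087998-55088147, plus strand: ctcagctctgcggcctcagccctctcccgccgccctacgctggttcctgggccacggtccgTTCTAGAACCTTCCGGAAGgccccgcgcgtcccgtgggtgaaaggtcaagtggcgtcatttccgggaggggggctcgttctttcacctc
*Timm9*, chr12:71136676-71136895, minus strand: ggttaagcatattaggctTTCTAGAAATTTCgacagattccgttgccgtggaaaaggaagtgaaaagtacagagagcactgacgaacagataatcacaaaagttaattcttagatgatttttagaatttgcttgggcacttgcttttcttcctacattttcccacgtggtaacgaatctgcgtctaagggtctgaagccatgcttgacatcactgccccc
*Tomm70a*, chr16:57121564-57121713, plus strand: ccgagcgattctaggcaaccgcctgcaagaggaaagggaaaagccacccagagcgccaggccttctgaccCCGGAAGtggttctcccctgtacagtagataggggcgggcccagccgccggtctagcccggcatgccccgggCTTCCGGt
In the *Hspe1* stretch, 2 matches of the heat shock element overlap each other and begin 89 and 84 bases before the start, and a pair of CCGGAAG matches overlaps both. The *Timm9* match begins 202 bases before the start. Those of CCGGAAG in *Tomm70a* begin 80 and 8 bases before it.

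Over windows from 250 bases before to 50 bases after a start, 28 of the 31 genes had a RefSeq window, and *Hspa9*, *Tomm7* and *Tomm40l* had none. CCGGAAG was found in 12 of these 28 genes (13 of their 31 windows), and in 8.86% of all 32851 windows. The 12 include *Tomm70a*, *Hspd1* and *Hspe1*, and also *Clpp*, *Grpel1*, *Timm10*, *Tomm22* and *Tomm34*, whose ratios lay above 1. The 3-unit heat shock element matched in 3 genes (3 of the 31 windows) and in 0.603% of all windows. Its core GAANNTTC, which the longer motif contains, matched in the same 3 genes and in 7.86% of all windows. AAGGTCA, the core of the site of oestrogen-related receptors, was present in 6 genes (*Hspd1*, *Hspe1*, *Timm23*, *Timm44*, *Timm8b* and *Trap1*) and in 4.72% of all windows. TGCAAT, a core bound by C/EBP and CHOP, was found in *Hspd1*, *Hspe1*, *Pmpcb* and *Timm17b* and in 8.4% of all windows. The NRF1 motif, GCGCA, any base and GCGC, occurred in *Hspd1*, *Timm8b* and *Tomm20* and in 4.6% of all windows. A match states only that these letters lie in the window.

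The libraries held between 29823073 and 40705783 reads on genes. *Tgs1* had 670 and 928 reads in the controls of 2 and 6 months and 130 and 156 in csPIMT-/- hearts. All 9 cardiomyocyte markers were detected in every library, and their summed normalized counts were 1.09 and 0.942 times those of the control at 2 and 6 months. Single markers went both ways. *Pln* alone passed 2-fold, downward, at 0.381 and 0.25, and *Ryr2* was at 0.596 and 0.524. *Mybpc3* (1.99 and 1.89) and *Myl3* (1.4 at both ages) were higher. Other tissues were also seen, unequally. All 5 atrial markers were more than 2-fold higher at 2 months, with a summed level 8.2 times that of the control. At 6 months *Nppa* (4.42) was higher and *Sln* (0.411), *Myl4* (0.774), *Myl7* (0.455) and *Bmp10* (0.167) were lower. All 5 white fat markers were more than 2-fold higher at 2 months, with summed normalized counts of 10.4, 2880, 12500 and 2140 in the order given above, and *Retn* and *Lep* had 0 reads in the 2-month control. Lung markers summed to 1.73, 8.79, 1160 and 17.7. Of 6 brown fat markers, 2 were more than 2-fold higher at 2 months, and *Ucp1*, which defines brown fat, had 10, 106, 1432 and 12 reads, and *Elovl3* none in the 6-month control. Summed macrophage markers were 3.14 and 1.64 times the control at 2 and 6 months, and endothelial ones 0.58 and 0.924 times. Fibroblast ones were at 0.705 and 1.36 times, and markers listed for skeletal muscle at 2.43 and 1.67 times. The skeletal muscle sum was almost wholly *Acta1* and *Ckm*, so it does not show whether skeletal muscle was present. The other markers of that list had few reads. Of these, *Tnnt3* and *Mylpf* were higher at both ages, and *Myh4* was lower at 2 months and higher at 6 months. Of 4 blood markers *Alas2* alone had reads, at 0.592 and 4.19 times the control. The pools also differed in sex, with 930, 29152, 5166 and 12357 reads of *Xist* and 2605, 341, 71 and 164 of *Uty*. The part of these differences in the results on import genes was not tested.

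A ratio below divides csPIMT-/- by the age-matched control, scaled by the median of ratios of the pair of libraries compared. Brackets after it give its 95% Clopper-Pearson interval, which covers counting error only and not the spread between mice or pools. Levels are the deposited normalized counts, listed as control and csPIMT-/- at 2 months, then control and csPIMT-/- at 6 months. Less RNA in each cell and fewer cells of a type cannot be told apart in whole hearts.

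The import and chaperone genes did not move as a block. At 2 months, 6 of the 31 were more than 2-fold lower in csPIMT-/- hearts, where 23.1% of all 15589 genes with enough reads were, and 2 were more than 2-fold higher, against 16.8% of all genes. At 6 months 7 were lower, against 25.7% of all genes, and 3 were higher, against 16.2%. These shares (19.4 and 6.45% of the 31 at 2 months, 22.6 and 9.68% at 6 months) lie near or under those of all genes. Ratios below 1 were found for 10 of the 31 at 2 months and 14 at 6 months, and for 50.8% of all genes at either age. The median ratio of the 31 genes was 1.13 at 2 months and 1.31 at 6 months, while that of all genes was 0.987 and 0.978. Only *Timm17b* was more than 2-fold higher at both ages (background 7.63%), whereas *Tomm70a*, *Hspd1*, *Clpx*, *Timm44*, *Timm8a1* and *Timm9* were more than 2-fold lower at both (background 16.3%). More of the 31 had a ratio above 1 at both ages than below 1 at both. The ratio was above 1 at both ages for 16 of the 31, where 38.1% of all genes were, and below 1 at both for 9, where 39.7% were. It lay between 1.3 and 2 at both ages for 9 of the 16. The share of all genes in this range was not counted, so this count does not set the 31 apart.

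**Figure D1:**
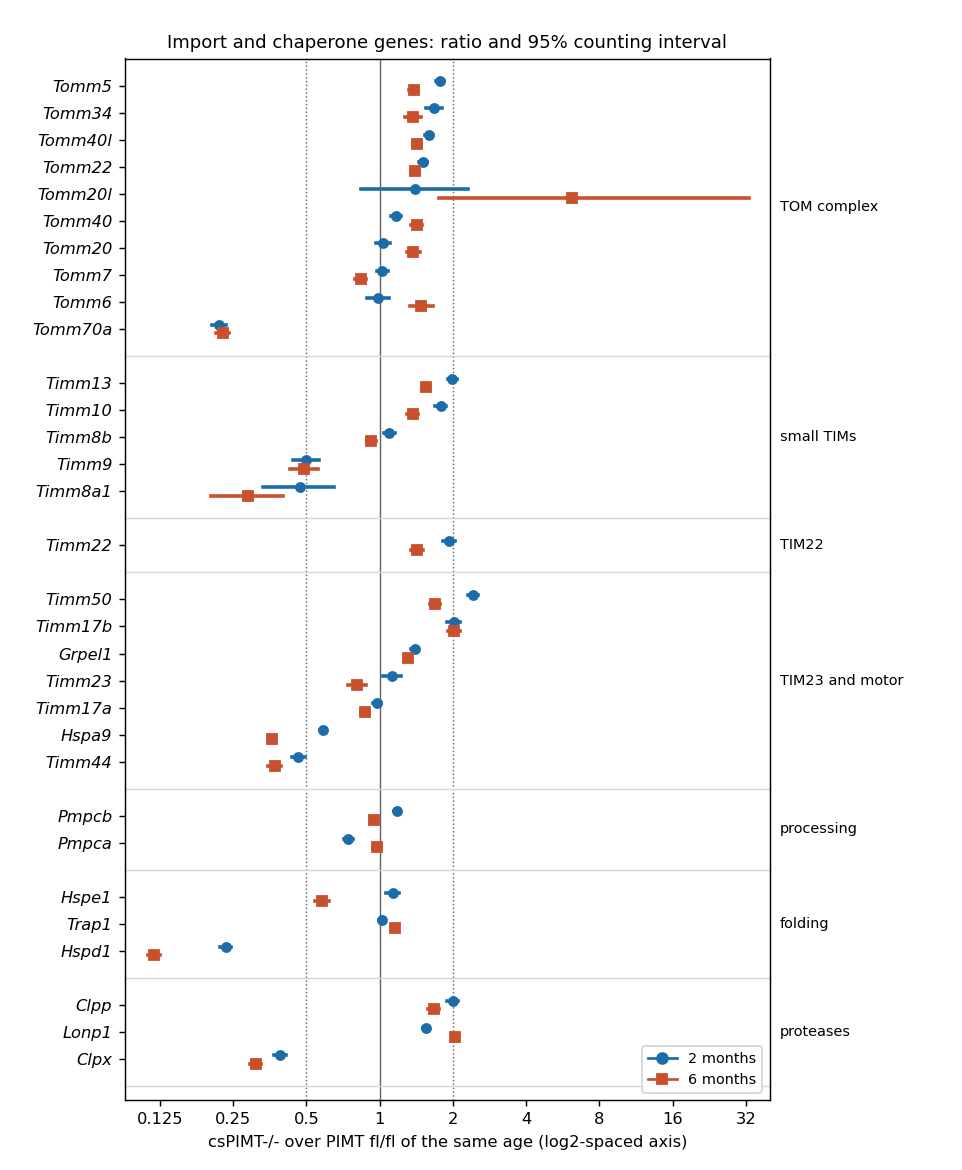
Ratio of csPIMT-/- over PIMT fl/fl of the same age for the 31 import and chaperone genes, grouped by role, on a log2-spaced axis. Circles are 2 months and squares 6 months, bars are 95% counting intervals, dotted lines mark 2-fold, and each ratio rests on 1 library per group. *Tomm70a*, *Hspd1* and *Clpx* lie left of 0.5 at both ages, most other genes between 0.5 and 2, and the wide bar is *Tomm20l*, which had few reads.

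In the TOM complex the receptor for carrier proteins stood apart from the other subunits. *Tomm70a* (chromosome 16, 57121703-57156705) encodes TOM70, which binds precursors with internal signals together with cytosolic Hsp70 and Hsp90. Its level was 5199 and 1163 at 2 months and 5663 and 1318 at 6 months, and the csPIMT-/- libraries lay below both controls. The ratio was 0.219 (0.204 to 0.235) and 0.227 (0.213 to 0.241). TOM20, the receptor for presequences, did not share this pattern: *Tomm20* had 1894 and 1995, then 1654 and 2337, with ratios of 1.03 and 1.38. *Tomm22*, whose product joins the receptors to the channel, had 4892 and 7502, then 4334 and 6209, and ratios of 1.5 and 1.40. The small subunit gene *Tomm5* had the highest level per kilobase of this complex in the controls. Its normalized counts were 3686 and 6661, then 3625 and 5139, and both csPIMT-/- libraries were above both controls (ratios of 1.77 and 1.38).

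The channel is encoded by *Tomm40*, and *Tomm40l* is its paralog. For *Tomm40* the levels were 3074 and 3670, then 2351 and 3429, with ratios of 1.17 and 1.42 between the genotypes and of 0.731 between the controls, 6 over 2 months. *Tomm40l* had 4826 and 7848, then 4269 and 6243, with ratios of 1.59 and 1.42. *Tomm20l*, the low paralog of *Tomm20*, gave 6.15 (1.76 to 32.9) at 6 months from 3 control reads and 1.40 (0.842 to 2.32) at 2 months. Set against the 2-month control, the 6-month library gave 0.555. The remaining genes, *Tomm34*, *Tomm6* and *Tomm7*, had ratios from 0.983 to 1.67 at 2 months and from 0.836 to 1.48 at 6 months. *Tomm34* encodes a mostly cytosolic co-chaperone. Summed over the 10 genes, the normalized counts were 1.22 and 1.12 times the control.

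The small TIM proteins, which escort hydrophobic chains through the intermembrane space, split in both directions. *Timm9* encodes one of the 2 proteins of the main ring. Its levels were 879 and 448, then 677 and 339, and the ratio was 0.499 (0.441 to 0.563) and 0.488 (0.427 to 0.556), so both intervals include 0.5. *Timm10*, which encodes its partner in that ring, was higher, with ratios of 1.78 and 1.36. *Timm13* had 2914 and 5916, then 3361 and 5351, with ratios of 1.99 and 1.55, and both csPIMT-/- libraries were above both controls. *Timm8a1* lies on the X chromosome, and its human counterpart *TIMM8A* is the gene of deafness-dystonia syndrome. It was the least abundant of the small TIMs, with 146, 180, 49 and 45 reads in the order of the library totals (controls, then csPIMT-/-), and had ratios of 0.469 (0.332 to 0.652) and 0.288 (0.203 to 0.401). The paralog *Timm8b* was the highest small TIM per kilobase, at 3067 and 3434, then 3752 and 3561, and its ratios of 1.10 and 0.925 were no further from 1 than the ratio of the controls, 1.17. *Timm22*, the channel of the carrier translocase and the only gene of that complex here, had 1603 and 3153, then 1760 and 2572, with ratios of 1.93 and 1.42.

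Genes of the TIM23 complex and its motor ran from 0.462 to 2.42 at 2 months and from 0.36 to 2.02 at 6 months. *Timm44* encodes the protein that anchors mortalin at the channel exit. It had 3615 and 1705, then 4024 and 1531, and ratios of 0.462 (0.435 to 0.491) and 0.371 (0.349 to 0.393). *Hspa9*, mortalin itself and the most abundant gene of the 31 per kilobase in the controls, had 29750 and 17690, then 33200 and 12260, with ratios of 0.583 and 0.360. Both csPIMT-/- libraries lay below both controls for these 2 motor genes. *Grpel1*, the nucleotide exchange factor that releases ADP from mortalin, was on the other side, with 6865 and 9762, then 6365 and 8573, and ratios of 1.39 and 1.31. *Timm50*, the receptor that hands presequences to TIM23, had 2233 and 5525, then 2621 and 4557. Its ratio of 2.42 (2.31 to 2.55) at 2 months was the highest of the 31 at that age, and at 6 months it was 1.69.

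TIM17, which lies next to TIM23 in the membrane, has 2 genes. *Timm17a* had 5870 and 5843, then 5133 and 4584, and its ratios of 0.976 (interval including 1) and 0.870 were both nearer to 1 than that of the controls, 0.835. *Timm17b* had 1425 and 2929, then 1480 and 3068, and ratios of 2.02 (1.89 to 2.15) and 2.02 (1.90 to 2.15), each interval including 2. *Timm17b* lies on the X chromosome. *Xist* was 7.76 times the control at 2 months and 0.488 times at 6 months. The part of sex in the ratios of *Timm17b* and of *Timm8a1*, also on the X chromosome, was not tested. *Timm23*, the channel subunit, had 996 and 1142, then 1053 and 873, with ratios of 1.12 (1.03 to 1.23) and 0.808 (0.739 to 0.883). Summed over the 7 genes of channel and motor, in which *Hspa9* dominates, the level was 0.879 and 0.658 times the control.

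The processing peptidase, which cuts off the presequence, differed little between the genotypes. Its catalytic subunit, *Pmpcb*, had 8410 and 10140, then 8082 and 7832, with ratios of 1.18 (1.15 to 1.22) and 0.944 (0.916 to 0.973). *Pmpca*, the other subunit, had ratios of 0.745 and 0.977. Summed, the pair was at 1.04 and 0.982 times the control.

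Among the folding chaperones, *Hspd1* was the lowest of all 31 genes at 6 months. *Hspd1* (chromosome 1, 55077835-55088243) had 8723 and 2076 at 2 months and 10140 and 1234 at 6 months, so that the csPIMT-/- libraries lay far under both controls. The ratio was 0.233 (0.222 to 0.246) and 0.119 (0.112 to 0.126). At 6 months 2.29% of all genes had a ratio this low or lower. *Hspe1*, the lid of the same folding chamber, had 2084 and 2408, then 2187 and 1304, with ratios of 1.13 (1.07 to 1.20) and 0.581 (0.542 to 0.622). It was thus slightly higher than the control at 2 months and lower at 6 months. The annotated genes share 112 bases at their starts, on opposite strands, and the annotation names 5 pseudogenes of *Hspd1*, 6 of *Hspe1* and 1 of *Hspa9*, with which reads could be shared. *Trap1*, the mitochondrial Hsp90 and the highest of these 3 chaperones per kilobase in the 2-month control, had 11650 and 12090, then 9624 and 11480, with ratios of 1.02 and 1.16 against 0.790 between the controls.

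The matrix proteases again went both ways. *Clpx*, the ATPase that unfolds substrates for CLPP, had 4684 and 1856, then 5402 and 1715, with ratios of 0.388 (0.366 to 0.411) and 0.309 (0.293 to 0.327). *Clpp*, the peptidase it feeds, had 1847 and 3755, then 1960 and 3354, with ratios of 1.99 (1.89 to 2.11) and 1.67 (1.58 to 1.76). *Lonp1*, which also degrades oxidised matrix proteins, had 7415 and 11750, then 7778 and 16230, and ratios of 1.55 (1.51 to 1.60) and 2.03 (1.98 to 2.09). The controls of both ages were nearly equal for *Lonp1* (1.002) and for *Clpp* (1.01). Of the 3 genes that are the usual readout of the mitochondrial unfolded protein response, *Clpp* was thus higher, *Hspd1* lower and *Hspe1* on either side of the control.

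Partners were also compared by their quotient within a library, which does not depend on how libraries are scaled to each other. Pairs other than the paralogs were chosen after the values were seen. The normalized count per kilobase of *Hspd1* over that of *Hspe1* was 1.34 and 1.48 in the controls of 2 and 6 months and 0.275 and 0.302 in csPIMT-/- hearts. *Clpx* over *Clpp* gave 0.864 and 0.939 in the controls and 0.168 and 0.174 in csPIMT-/- hearts. For *Timm44* over *Timm50* the quotients were 1.37 and 1.3 against 0.261 and 0.284. In these 3 pairs the quotient in csPIMT-/- hearts was between 0.186 and 0.219 times that of the age-matched control. *Hspa9* over *Grpel1* went from 5.02 and 6.04 to 2.10 and 1.66. *Tomm70a* over *Tomm20* went from 2.26 and 2.81 to 0.479 and 0.464. *Timm17a* over *Timm17b* went from 1.35 and 1.13 to 0.652 and 0.489, so that the order of these paralogs per kilobase of their longest coding transcript was the reverse in csPIMT-/- hearts, whereas *Tomm40* over *Tomm40l* went from 1.82 and 1.58 to 1.34 and 1.57, where the 6-month libraries were alike.

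**Figure D2:**
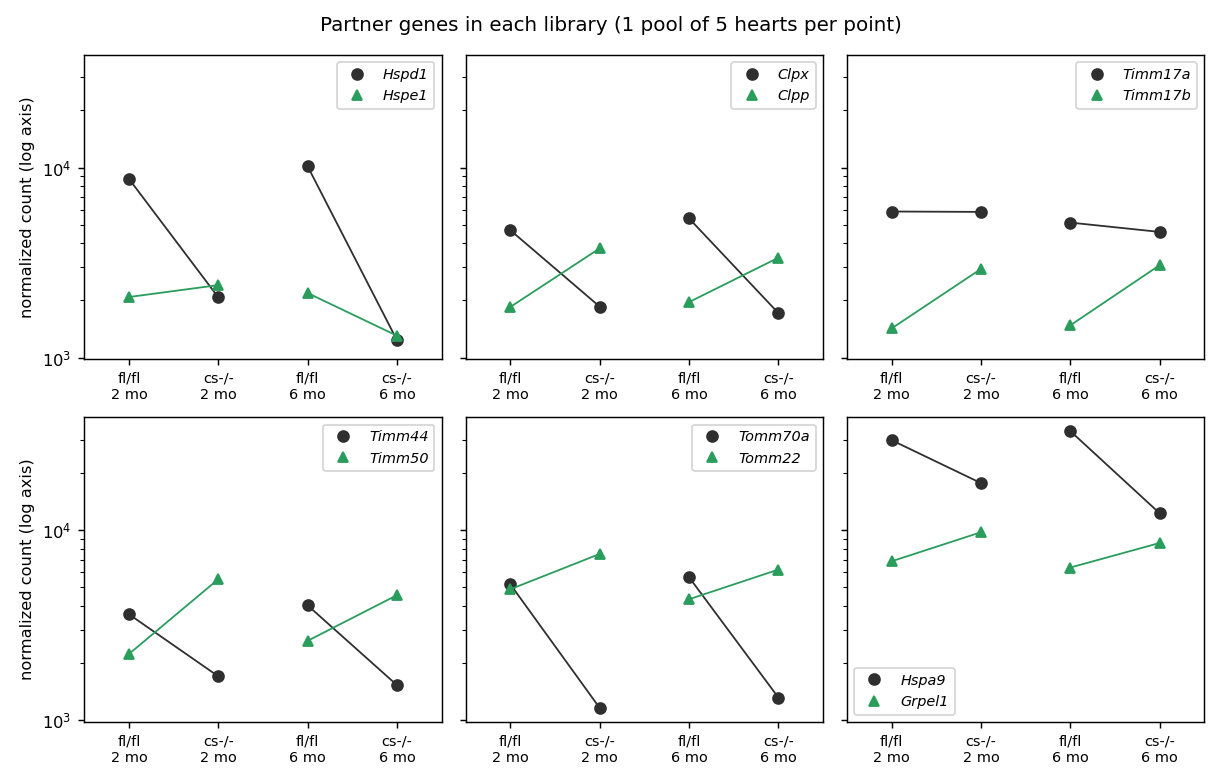
Normalized counts (log axis) of 6 pairs of partner genes in the 4 libraries, each point 1 pool of 5 hearts, with a line from PIMT fl/fl to csPIMT-/- of the same age. In each panel the gene drawn in black falls relative to the gene drawn in green: *Clpx* crosses under *Clpp*, *Timm44* under *Timm50*, and *Hspd1* drops to the level of *Hspe1*.

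Between the ages the controls differed little. Of the 31 genes, 30 differed by less than 2-fold between the controls of 6 and 2 months. The exception, *Tomm20l*, was 0.0857 times as high. Among all genes 5.58% passed 2-fold downward and 8.79% upward. Ratios between 0.8 and 1.25 were found for 26 of the 31, and the share of all genes in this range was not counted. In csPIMT-/- hearts most genes were somewhat lower at 6 than at 2 months. The ratio of 6 over 2 months was below 1 for 24 of 31, where 49.1% of all genes were, with a median of 0.802 against 1.01 for all genes. In the controls it was below 1 for 16 of the 31 and for 49% of all genes. *Tomm20l* alone passed 2-fold in csPIMT-/- hearts, at 0.386 (9.44% of all genes passed it downward and 9.56% upward). *Hspe1* (0.526) and *Hspd1* (0.578) followed, and *Hspa9* stood at 0.674. *Pmpca* (1.39) and *Lonp1* (1.34) were the 2 highest. The 2-month csPIMT-/- pool is the one with most *Ucp1* (1432 reads, against 12 in the 6-month pool), and brown fat is rich in mitochondria. *Cox7a1*, a respiratory chain subunit of muscle and brown fat listed as a brown fat marker, had normalized counts of 22200 and 14600 in these pools. The other markers of that list went both ways. *Ppargc1b* (1060 and 582) and *Elovl3* (29.6 and 5.2) were higher at 2 months, *Cidea* (2560 and 2600) was alike and *Dio2* (75.2 and 264) was lower. The part of brown fat in the age difference was not tested.

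The genotype difference followed the base composition of the transcripts, in these genes as in all others. Across the 14133 genes with a GC value, the log2 ratio and the GC content of the longest coding transcript had a Spearman rho of 0.581 at 2 months and 0.609 at 6 months. Across the 31 genes it was 0.596 and 0.626. Between the 2 controls it was -0.258 across all genes. Points share libraries and are not independent, and no p is given. The GC content of the 31 ranged from 40.7% (*Tomm70a*) to 61.5% (*Tomm40*), with a median of 49.7% beside 50.3% for all genes. *Tomm70a*, *Timm9*, *Clpx* and *Hspa9*, which were lower, are AT-rich among the 31, and *Timm50*, *Timm13*, *Clpp* and *Lonp1*, which were higher, are GC-rich. Exceptions include *Timm44*, with 52.2% and a low ratio, and *Tomm22*, with 45.8% and a ratio above 1. *Tomm20*, *Tomm5* and *Grpel1* also lie below the median GC content and had ratios above 1 at both ages. *Timm17a* and *Tomm7*, AT-rich as well, stayed near 1 and far from 2-fold lower.

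**Figure D3:**
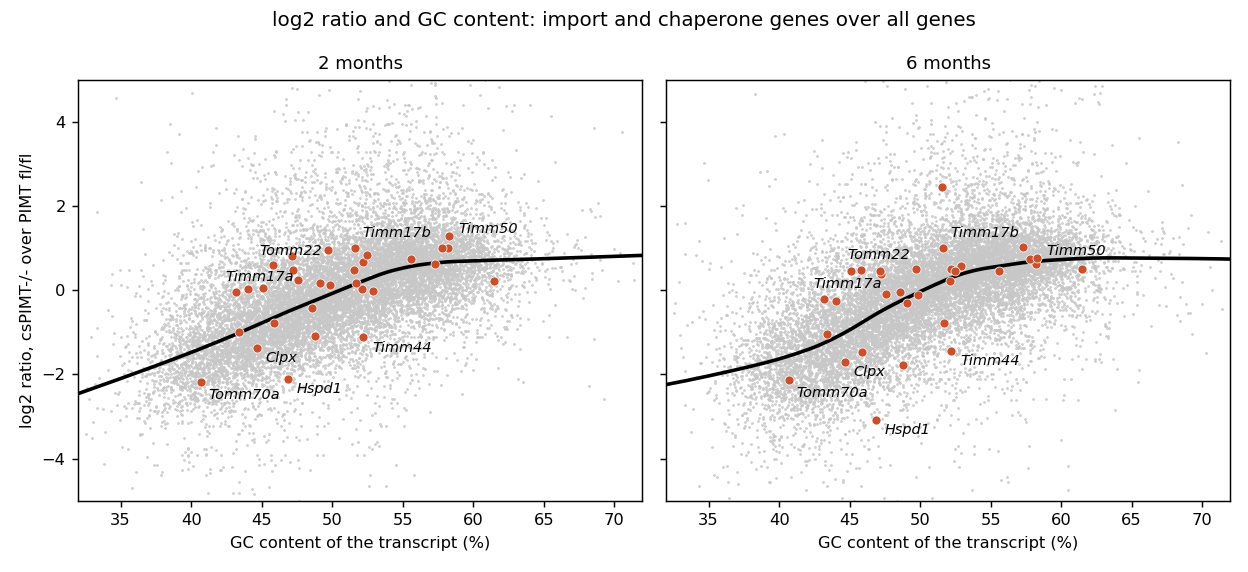
log2 ratio of csPIMT-/- over PIMT fl/fl against transcript GC content (%) at 2 and 6 months, for all genes with a GC value (grey) and the 31 import and chaperone genes (red), with the lowess trend of all genes (black line). The axes leave out the most extreme genes. *Hspd1* and *Timm44* lie well below the line at both ages, *Tomm22* and *Timm17a* above it, and *Tomm70a* at the AT-rich end lies nearer to the line than to 0.

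When the GC trend of all genes was subtracted, the genes that stood out were partly others. At 2 months 2 of 31 were then more than 2-fold lower (11.6% of all genes) and 4 higher (15% of all genes), and at 6 months 4 were lower (13.1%) and 4 higher (14%). *Hspd1* remained low, at 0.332 and 0.176, and so did *Timm44*, at 0.397 and 0.302. These 2 were more than 2-fold lower at both ages, where 4.87% of all genes were. *Timm8a1* was at 0.554 and 0.337, and *Hspe1* at 1.02 and 0.497. *Tomm70a* came to 0.572 and 0.669, *Clpx* to 0.689 and 0.621, *Hspa9* to 0.916 and 0.614, and *Timm9* to 1.01 and 1.13, on the other side of 1. Among the higher genes, *Clpp* came to 1.26 and 1.05, *Timm50* to 1.52 and 1.05, and *Lonp1* to 0.992 and 1.29, whereas *Timm17b* kept 1.82 and 1.74. *Timm17a* (2.01 and 2.08) and *Tomm22* (2.37 and 2.39), both AT-rich, were then more than 2-fold higher at both ages (6.81% of all genes). Over all 31, the side of 1 changed for 5 genes at 2 months and 9 at 6 months, and such changes were not counted over all genes. The quotient of *Hspd1* over *Hspe1* is less touched by this than that of *Clpx* over *Clpp*. Their transcripts have 46.8 and 51.7% GC for the first pair and 44.6 and 57.8% for the second. Subtraction of the GC trend also shrank the difference of *Tgs1*, the deleted gene. In the fit over all 4 libraries described below, its log2 difference was -2.08 without the subtraction and -0.77 with it. Which set of values lies nearer to the true differences was not tested.

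**Figure D4:**
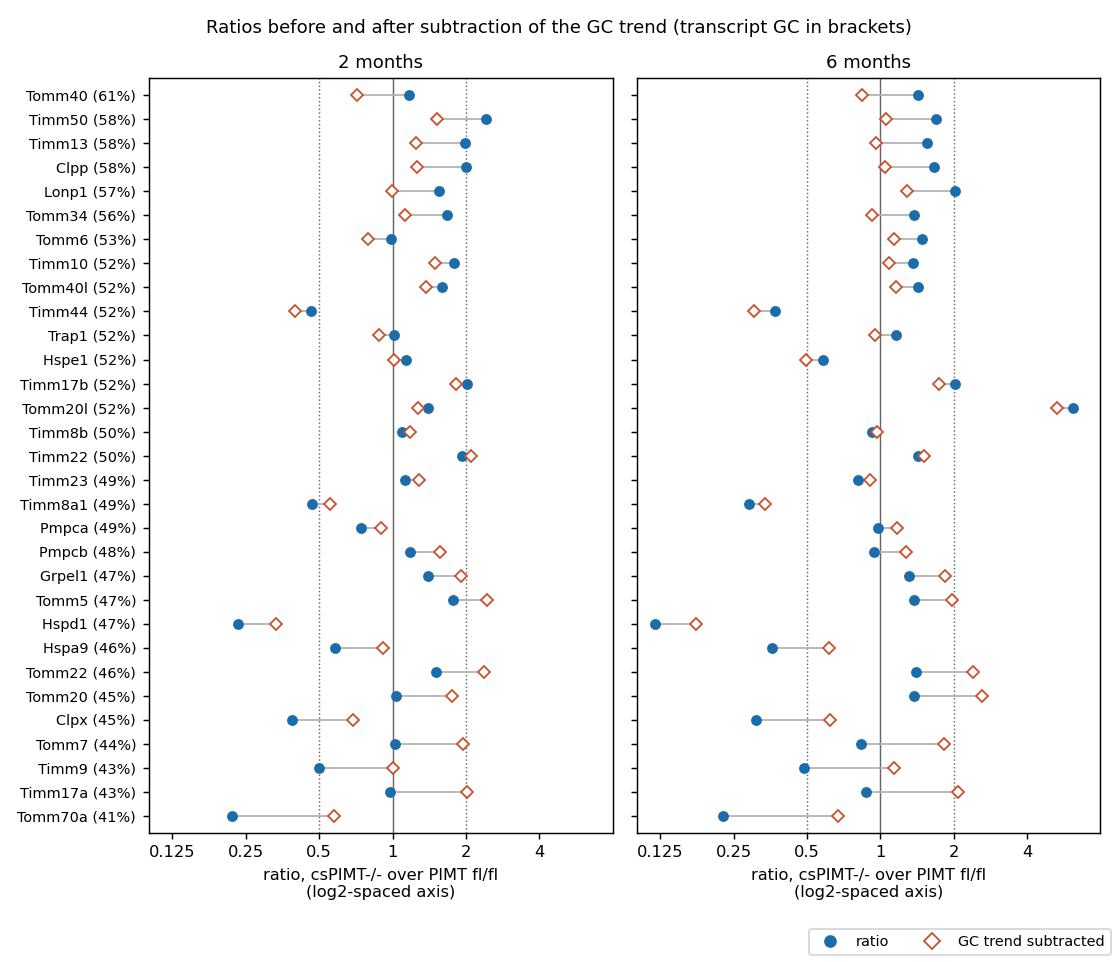
Ratio of csPIMT-/- over PIMT fl/fl (log2-spaced axis) at 2 and 6 months for the 31 genes, ordered by transcript GC content, before (filled circles) and after (open diamonds) the GC trend of all genes was subtracted. AT-rich genes at the bottom move to the right and GC-rich genes at the top to the left, and *Hspd1* and *Timm44* keep a ratio under 0.5 at both ages.

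One fit over all 4 libraries, with genotype and age as terms in limma, had 1 residual degree of freedom. It drew its error mainly from the variance of other genes. That 1 degree of freedom is the departure from additive effects of genotype and age, which stands in for replicate spread. The SE and adjusted p below thus do not measure the spread between mice or pools. At a Benjamini-Hochberg adjusted p under 0.05 over 14935 genes, 6 of the 31 were lower in csPIMT-/- hearts (17.9% of all genes) and 5 higher (12.1%). *Hspd1* fell by 2.55 on the log2 scale (SE 0.294, limma adjusted p = 0.0122) and *Tomm70a* fell by 2.12 (SE 0.205, limma adjusted p = 0.0122). *Clpx* (-1.49), *Timm44* (-1.23), *Hspa9* (-1.08) and *Timm9* (-0.97) also fell, with limma adjusted p from 0.0134 to 0.0463. *Timm17b* and *Timm50* rose by 1.06 (limma adjusted p = 0.0218 and 0.0269), and *Clpp* (0.91), *Lonp1* (0.87) and *Timm13* (0.86) rose with limma adjusted p from 0.0314 to 0.0374. *Timm8a1*, at -1.39 with an SE of 0.478, did not pass (limma adjusted p = 0.0782). All 11 calls were lost when the GC trend was subtracted in the fit and when the variance was given no trend with the mean: then 0 genes passed, 13 and 12 of the 31 had an unadjusted p under 0.05, and the smallest adjusted p of the 31 was 0.113 and 0.0669. Fits without 1 of the controls had genotype alone as a term and 1 control library, so only effects are given. Without the 2-month control the log2 differences were -2.66 for *Hspd1*, -2.19 for *Tomm70a* and -1.60 for *Clpx*. Without the 6-month control they were -2.45, -2.07 and -1.39.

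Genes of the same pathways outside the symbol rule also held a few far from 1 on either side. Of 19 other import and sorting genes, 2 were more than 2-fold lower and 4 higher at 2 months, and 2 and 2 at 6 months, beside the shares of all genes given above (23.1% and 16.8%, then 25.7% and 16.2%). Lower at both ages were *Mtx2* (0.416 and 0.347) and *Mtx3* (0.283 and 0.227), which encode metaxins of the outer membrane sorting machinery, with 3579, 4312, 1067 and 1298 reads and 1394, 1840, 282 and 363 reads, in the order of the library totals. Subtraction of the GC trend brought *Mtx2* to 0.815 and 0.782 and *Mtx3* to 0.638 and 0.592. *Gfer*, the sulfhydryl oxidase of the disulfide relay that traps small TIMs, was higher at both ages (2.36 and 2.60), and so was *Dnlz*, which keeps mortalin soluble (2.92 and 2.18). With the GC trend subtracted these were 1.71 and 1.84 for *Gfer* and 1.93 and 1.44 for *Dnlz*, under 2-fold. *Chchd4*, the receptor of that relay, had ratios of 1.35 and 1.32.

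Of 12 other quality control genes, the inner membrane protease *Yme1l1* was more than 2-fold lower at both ages (0.202 and 0.204, from 5199, 7330, 753 and 1299 reads, or 0.668 and 0.712 with the GC trend subtracted). *Clpb* passed 2-fold at 2 months only (2.08) and the intermembrane space protease *Htra2* at 6 months only (2.33). Of 7 regulators tied to the mitochondrial unfolded protein response, none passed 2-fold at 2 months. At 6 months *Atf5*, a transcription factor of this response, was at 2.06 (1.91 to 2.22), with 1.56 at 2 months. *Cebpb* was at 3.07 at that age, with 1.25 at 2 months. *Atf4* was at 0.716 and 1.39, *Ddit3*, which encodes CHOP, at 1.04 and 0.927, and *Hsf1* at 1.47 and 1.38. With the GC trend subtracted *Atf5* was at 0.952 and 1.22 and *Cebpb* at 0.734 and 1.81.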

How the data were processed

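Hearts of PIMT fl/fl and csPIMT-/- mice of 2 and 6 months were profiled by RNA-seq (polyadenylated RNA, directional libraries, 1 pool of 5 hearts per group). The authors aligned reads with STAR (mm10), assigned them to genes by htseq-count (HTSeq 0.6.1p1 per the submitters' processing notes, strand setting not given in the sources used here) and deposited normalized counts, a signal on the median-of-ratios scale. One column is headed as read counts but is normalized like the others. Of the deposited values 100% were whole multiples of the smallest value above 0 (largest deviation 4.89e-09 reads), which gave back whole reads.

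Ratios were scaled by the median of ratios in each pair of libraries, log2 ratios a pseudocount of 0.5 reads, and a gene was called when past 2-fold. GC content and length were those of the longest coding transcript in GENCODE M21 (GRCm38, the assembly of mm10), known for 90.7% of genes, and the trend was a lowess curve of span 0.3. limma 3.58.1 (R 4.3.3) was run on TMM-scaled log2 reads with a pseudocount of 1, a variance trend and p-values adjusted after Benjamini and Hochberg. edgeR 4.0.16 and DESeq2 1.42.0 on recovered reads were alternatives. Scripts were tested on simulated data.

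The members, gene lists and tests were chosen with earlier results of these data known. Named with full values were genes past 2-fold alike at both ages, the highest per kilobase of each role, paralog pairs, genes with intervals on opposite sides of 1, genes called by limma, and *Hspd1*, *Hspe1*, *Hspa9*, *Lonp1* and *Clpp*. *Timm10b*, *Timm21*, *Timm29* and *Timmdc1* were not found under these symbols. *Tomm22* and *Grpel1* were added after their values were seen. The values of 1 listed regulator are not reported here.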

Additional observations from a re-analysis of the deposited data

Results flagged for a closer look

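With 1 library per group, no group could be searched for outlying samples. For 4 genes the ratio of csPIMT-/- over the control lay above 1 at 2 months and below 1 at 6 months, with counting intervals that exclude 1 at both ages. The difference between the ages was not tested, and changes of this kind were not counted over all genes. *Hspe1*, which encodes Hsp10, had 1.13 and 0.581. *Timm23*, the channel of the presequence translocase, had 1.12 and 0.808. For *Pmpcb*, the catalytic subunit of the processing peptidase, the values were 1.18 and 0.944, and for the small TIM gene *Timm8b* they were 1.10 and 0.925. The order did not hold throughout. Against the control of the other age *Timm8b* was at 0.885 and 1.14, and against both controls summed at 0.970 and 1.02. With the GC trend subtracted *Pmpcb* was at 1.57 and 1.28. That subtraction put *Hspe1* at 1.02 and 0.497, close to 1 at 2 months. No gene of the 31 went from below to above 1 in this way. For *Hspe1* alone of the 4 was the ratio more than 1.5-fold from 1 at either age.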

How the results depend on the processing

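No paired analysis was possible because each group had 1 library and the labels number no replicates. Counts past 2-fold were 8 at 2 months and 10 at 6 months. These totals stayed within 1.5-fold under TMM, GC subtraction, other controls and other minimums. With the GC trend subtracted, however, the split and partly the genes changed. At 2 months 6 lower and 2 higher genes became 2 lower and 4 higher. At 6 months 7 lower and 3 higher became 4 and 4. When the whole counting interval had to be past 2-fold, 5 and 6 genes were left, by construction fewer. The median log2 ratio at 6 months, 0.392, was 0.117 with the GC trend subtracted, 0.0883 with the 2-month control and 0.0772 with both controls summed, and the cause was not tested. That at 2 months moved by less than the median difference between the controls, 0.14. Of the 11 calls by limma, 0 remained without a variance trend or with the GC trend subtracted. The count was 11 or 12 with edgeR, DESeq2, other scaling, another pseudocount, no filter or genotype alone. Fits with 1 library left out had genotype alone as a term and 1 library in a genotype, so their calls are not given. Genes whose counting intervals lay on the same side of 1 at both ages, a count added after seeing the data, numbered 20 of the 31. The share of all genes for this count was not computed. Of 248 ratios of single genes under alternatives, 106 stayed within the counting interval of the reported ratio and 139 left it. Called ratios changed sides 3 times: *Timm9* with the GC trend subtracted (1.01 at 2 and 1.13 at 6 months) and *Tomm20l* at 6 months with the 2-month control (0.555). Of the 31, *Tomm20l* and *Timm8a1* had the fewest reads. Called ratios of *Timm9* and *Timm17b* at both ages, and of *Lonp1* at 6 months, also had counting intervals that included the 2-fold limit. Sex and other tissue in the pools cannot be told apart from genotype with 1 pool per group.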
